A study of Prunus avium with 6 samples.

Results

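The genes described here are the cytochrome P450 genes of sweet cherry (*Prunus avium*) that carry the description CYP82D47-like. They were taken by that word from the 581 rows used here of the annotation table that came with the paper, and they are 8 of the 43673 predicted genes of the files. All 8 lie on scaffold Pav_sc0000890.1, with identifiers from Pav_sc0000890.1_g1110.1.mk to Pav_sc0000890.1_g1250.1.mk, and only 2 other genes of the files have identifiers between them. Each copy is called below by its gene number, such as g1250.

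RNA of mature fruits and of leaves was read by pyrosequencing for the cultivars ‘Bing’, ‘Lapins’ and ‘Rainier’, all collected in 2012. Each cultivar and tissue had 1 library, so the 3 cultivars serve as the replicates of a tissue and a pair of cultivars has 1 library per arm. ‘Bing’ trees grew in Quillota, ‘Lapins’ trees in Los Andes and ‘Rainier’ trees in San Francisco de Mostazal, so cultivar and site cannot be told apart. The labels list an age of 1, without a unit, for every sample, and do not say whether tissue of several trees was pooled. The libraries held between 70058 and 116264 unique reads, that is, reads which the mapper placed on a single gene. At this depth 0 reads still allow 3, which is 0.258 to 0.428 per 10000 unique reads. The tissue labels were checked with a chlorophyll a-b binding gene of the light-harvesting antenna, which had 0, 0 and 1 unique reads in the fruits and 57, 48 and 55 in the leaves. Here and below, runs of 3 values stand in the order ‘Bing’, ‘Lapins’, ‘Rainier’. No defining marker of fruit flesh was among the described genes.

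Cytochromes P450 are heme enzymes, in plants mostly of the endoplasmic reticulum, and most use molecular oxygen to hydroxylate or otherwise oxidise small molecules. The CYP82 family is a plant family of such enzymes and works mostly in specialised metabolism. Its known members remove a methyl group from nicotine in tobacco, hydroxylate flavones in basil and skullcap, and act on coumarins and on volatile terpenoids in *Arabidopsis*. CYP82 genes often stand in tandem rows of similar copies. The substrates of the sweet cherry copies are not given in the sources used here, and the description is the best database match of each coding sequence. Similar copies matter for the measurement, because a read that fits several genes equally well cannot be placed on 1 of them with certainty.

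The copies were read very unequally. Unique reads were found for 4 of the 8 genes, namely g1250, g1120 (Pav_sc0000890.1_g1120.1.mk), g1200 (Pav_sc0000890.1_g1200.1.mk) and g1110 (Pav_sc0000890.1_g1110.1.mk). A further copy, g1190 (Pav_sc0000890.1_g1190.1.br), had only non-specific reads, which match more than 1 gene. The remaining 3 copies, g1130 (Pav_sc0000890.1_g1130.1.br), g1150 (Pav_sc0000890.1_g1150.1.br) and g1220 (Pav_sc0000890.1_g1220.1.br), had no read of either kind in any library. These 3 are the copies that the annotation table lists with shorter coding sequences than the others. A shorter sequence offers less for a read to match, but whether this bears on their lack of reads was not tested. Over all libraries g1250 had 238 unique reads, g1120 had 49, g1200 had 6 and g1110 had 1. Unique reads were thus found for 50.0% of these 8 genes, against 63.1% of the genes of their scaffold, 62.1% of the genes described in the rows used and 37.8% of the 43673 predicted genes.

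The most abundant copy, g1250, was read mainly in fruit in all 3 cultivars. Its unique reads numbered 128, 52 and 44 in the fruits, against 2, 10 and 2 in the leaves. Per 10000 unique reads these were 11, 6.99 and 5.24 in fruits and 0.225, 1.43 and 0.285 in leaves. The lowest fruit therefore stood above the highest leaf, which was that of ‘Lapins’. The same absence of overlap was found in 27.5% of the 1864 genes that passed edgeR's filter on low counts. The mean was 7.75 ± 2.96 per 10000 in fruit and 0.646 ± 0.678 in leaf (SD, n = 3 cultivars). By the number of its unique reads g1250 was gene 64 of the ‘Bing’ fruit library, 159 of the ‘Lapins’ fruit library and 238 of the ‘Rainier’ fruit library. In the leaf libraries it stood at 6444, 1399 and 5219. Genes with equal reads share the same, highest rank, and the ranks in ‘Bing’ and ‘Rainier’ leaf rest on 2 reads each.

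**Figure D1:**
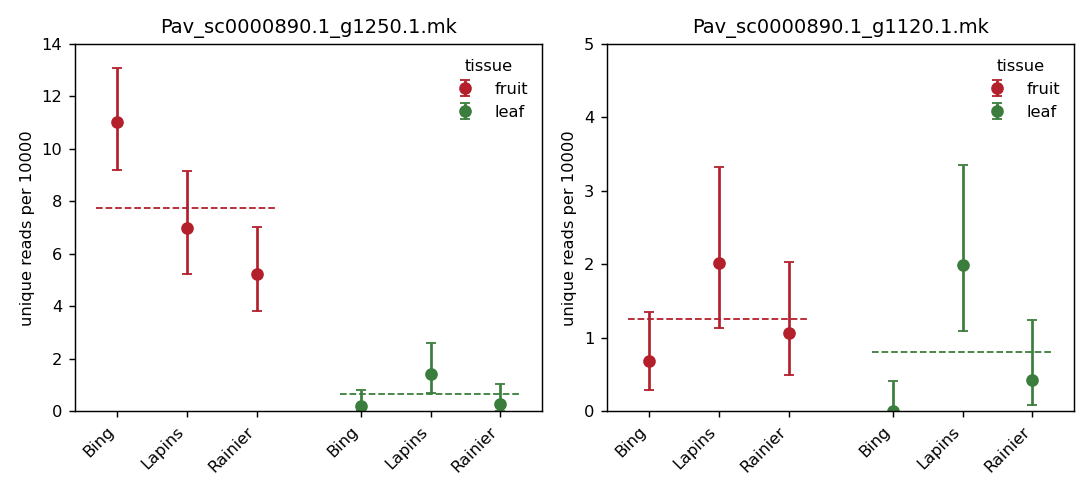
Unique reads per 10000 (vertical axis, a different scale in each panel) of g1250 on the left and g1120 on the right, in fruit (red) and leaf (green) of each cultivar. Points are single libraries, bars are exact 95% intervals for counting error and dashed lines are the means of 3 cultivars. All fruits lie above all leaves for g1250, at 5.24 to 11 against 0.225 to 1.43, whereas fruit and leaf of g1120 overlap.

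The tissue difference was tested across all genes that passed the filter, by edgeR's quasi-likelihood method. Of the 8 copies only g1250 passed that filter, so the test says nothing of the others. It was higher in fruit, 11.2-fold or 3.49 on the log2 scale, with a standard error of 0.63 (adjusted p = 0.000239 from edgeR). Among the 1864 tested genes 19.4% were called higher in fruit, 26.3% were called lower, and 73 had a larger log2 fold change. ‘Lapins’ leaf moved this value the most: without that library the log2 fold change was 4.63 (adjusted p = 0.000544). The p-value measures the spread between these libraries, which differ in cultivar and site. In reads of whole tissue, fewer cells with the transcript and less transcript per cell cannot be told apart.

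**Figure D2:**
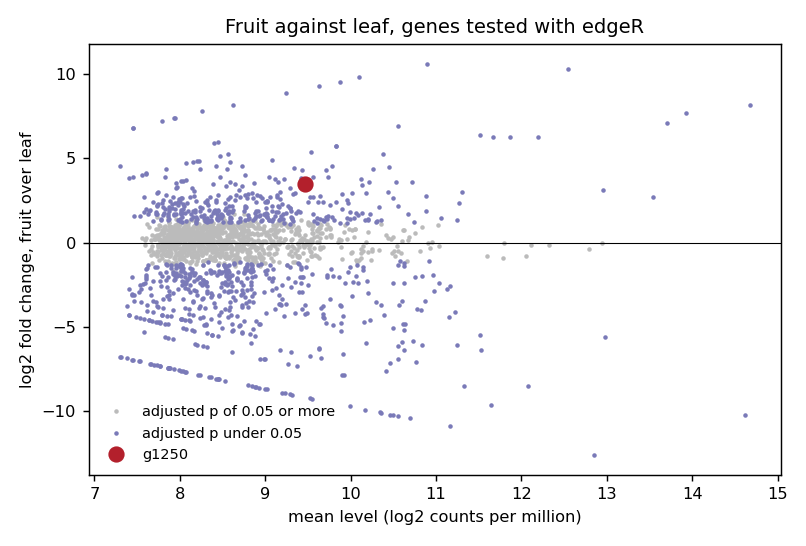
Log2 fold change of fruit over leaf (vertical axis) against mean level in log2 CPM (horizontal axis) for the 1864 genes tested with edgeR; violet points have an adjusted p under 0.05. The large red point is g1250 at a log2 fold change of 3.49, above most genes of its level.

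Within each cultivar the share of g1250 was higher in fruit than in leaf. The share in fruit was 49.0 times that in leaf in ‘Bing’ (exact 95% interval 13.3 to 409), 4.90 times in ‘Lapins’ (2.46 to 10.8) and 18.4 times in ‘Rainier’ (4.80 to 157). Each interval lies above 1, and each covers counting error alone. The large ratios of ‘Bing’ and ‘Rainier’ rest on 2 leaf reads each.

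The second copy, g1120, was read in both tissues and at similar levels in ‘Lapins’. Its unique reads numbered 8, 15 and 9 in the fruits and 0, 14 and 3 in the leaves. Fruit and leaf overlapped, and ‘Lapins’ was the highest cultivar in both tissues. Its mean was 1.26 ± 0.684 per 10000 in fruit and 0.809 ± 1.05 in leaf (SD, n = 3 cultivars). In ‘Lapins’ the fruit share was 1.01 times the leaf share (0.454 to 2.26). In ‘Rainier’ it was 2.51 times (0.626 to 14.4), and in ‘Bing’ it was at least 2.04 times when the 0 reads of the leaf are set to the floor of 3. This copy did not pass the filter on low counts. With no filter, edgeR gave it 0.62 on the log2 scale with a standard error of 0.62 (adjusted p = 0.588), in a fit that called 4.29% of 16519 genes higher in fruit.

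The other copies with unique reads were at the limit of detection. The fruits held 5, 1 and 0 reads of g1200, and the leaves held none. Over the 3 cultivars its share in fruit was 1.67 times that in leaf only when the leaf libraries are set to the floor of 3 reads in all. The exact 95% interval of the ratio began at 0.983 and had no upper end, so a difference was not detectable at this depth. With no filter its adjusted p from edgeR was 0.223, and its fitted fold depends on the prior count. The single read of g1110 was in ‘Lapins’ leaf. No fruit held a unique read of g1110, g1130, g1150, g1190 or g1220, which was counted as not detected and not as absent.

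Levels of different copies can be compared per length with the RPKM that the authors deposited, which is based on total reads. The deposited values imply coding sequences of 1569 to 1593 bases for the 5 copies with reads, so their read numbers compare almost directly. In fruit, g1250 averaged 521 ± 185 RPKM, g1120 averaged 78.8 ± 42.6 and g1200 averaged 11.7 ± 13.7 (SD, n = 3 cultivars). In leaf, g1250 averaged 40.1 ± 42.0 RPKM and g1120 averaged 50.4 ± 65.5. In fruit the order of g1250 and g1120 held in each cultivar, while in leaf the copies differed by less than the spread between cultivars.

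Together the copies made up 12.1 of every 10000 unique reads in ‘Bing’ fruit (exact 95% interval 10.2 to 14.3), 9.14 in ‘Lapins’ fruit (7.10 to 11.6) and 6.31 in ‘Rainier’ fruit (4.73 to 8.26). In leaves they made up 0.225 in ‘Bing’ (0.0272 to 0.812), 3.57 in ‘Lapins’ (2.31 to 5.27) and 0.712 in ‘Rainier’ (0.231 to 1.66). ‘Lapins’ leaf thus held 25 of the 32 unique reads of the leaf libraries. In ‘Lapins’ the share of g1250 in the group was higher in fruit than in leaf, beyond counting error. Of the unique reads in fruit, g1250 took 90.8% in ‘Bing’ (84.8 to 95), 76.5% in ‘Lapins’ (64.6 to 85.9) and 83.0% in ‘Rainier’ (70.2 to 91.9). In leaf it took 40.0% in ‘Lapins’ (21.1 to 61.3) and 40.0% in ‘Rainier’ (5.27 to 85.3), where g1120 took 56.0% and 60.0%. In ‘Bing’ leaf both of the 2 reads were g1250.

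**Figure D3:**
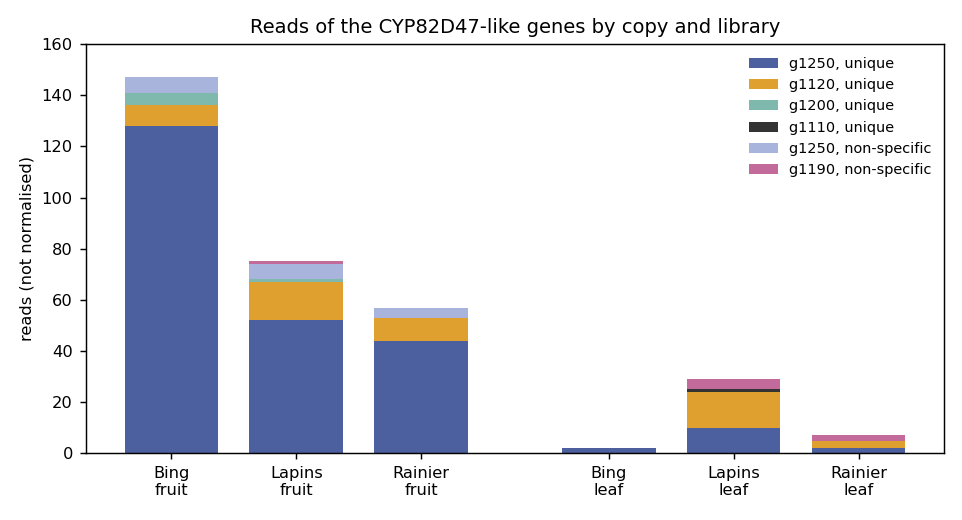
Number of reads (vertical axis, not normalised) of the copies in each library, stacked by copy and by whether a read was unique or non-specific. The unique reads of g1250 make up most of each fruit column, 128, 52 and 44 reads, and ‘Lapins’ is the only leaf library with more than 10 reads.

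Whether g1250 and g1120 differ in their tissue ratio was asked directly, with a ratio that does not depend on library size. The log2 ratio of g1250 to g1120, with 0.5 added to both, was 3.92, 1.76 and 2.23 in the fruits. In the leaves it was 2.32, -0.47 and -0.49. Fruit and leaf overlapped through ‘Bing’ leaf, where the value rests on 2 reads against 0. The difference, fruit minus leaf, was 2.18 (two-sided exact permutation test, p = 0.3), and 3 libraries against 3 cannot give a p below 0.1. With 1 read added to both copies the difference was 2.34 (p = 0.1 in the same permutation test), so the overlap depends on the number added. With total reads it was 2.29 (permutation test, p = 0.2). Within a cultivar, Fisher's exact test on the reads of both copies gave p = 0.00201 in ‘Lapins’ (odds ratio 4.85, exact 95% interval 1.60 to 14.8, adjusted p over 3 cultivars = 0.00602). The same exact test gave p = 0.0548 in ‘Rainier’ (odds ratio 7.33, 0.697 to 94.9) and p = 1 in ‘Bing’, where the interval of 0 to 91.1 leaves the ratio undetermined. These tests compare 2 libraries, not the tissues.

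The comparison of unique with total reads showed where reads were ambiguous. Beside its unique reads, g1250 had 6, 6 and 4 non-specific reads in the fruits, and in leaves it had none. That is 6.67% of its 240 total reads in fruit, against 1.71% for all genes of the fruit libraries. Over all libraries 6.30% of its reads were non-specific. Of the 1001 genes with at least 100 total reads, 4.50% had a larger non-specific share and 86.3% had no non-specific read. The second copy had none in 49 reads, which leaves a share of up to 7.25%. Ambiguous reads that fit g1120 may have been counted at another gene. All 7 reads of g1190 were non-specific, 1 in ‘Lapins’ fruit, 4 in ‘Lapins’ leaf and 2 in ‘Rainier’ leaf. Which gene these reads also matched cannot be read from the files. In leaf, g1190 and g1120 had reads in the same libraries, while g1250 had reads in every leaf library. In fruit, g1120 and g1250 had reads in every cultivar, while g1190 had reads in ‘Lapins’ only.

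Counting total in place of unique reads left the tissue result in place. On the log2 scale g1250 was then 3.60 higher in fruit, with a standard error of 0.62 (adjusted p = 0.000132 from edgeR). The share of g1250 among the total reads of the group was 91.2%, 77.3% and 84.2% in the fruits, and 34.5% and 28.6% in leaves of ‘Lapins’ and ‘Rainier’. In ‘Rainier’ leaf g1190 then equalled g1250, at 2 reads each.

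Cultivars were compared within a tissue by the 3 criteria of the paper. A gene is called where its proportion of reads differs at an unadjusted p of at most 0.05, where the shares differ at least 2-fold, and where at least 10 reads map to it. The paper does not say whether 1 or both libraries must hold these reads, and 1 was taken to be enough here. This reading called 1670 genes in any pair of fruits and 1071 in any pair of leaves, well above the numbers in the paper. With 10 reads asked of both libraries these were 501 and 327. Of the 6 calls given below, 5 were then lost and only that of g1250 between ‘Bing’ and ‘Rainier’ fruit remained. With Fisher's exact test in place of the paper's test no call of g1250 or g1120 changed, and its p is the one printed. A call compares 2 libraries and not 2 cultivars. The background is the share called of the genes with at least 10 reads in 1 library of the pair. In fruit, g1250 was higher in ‘Bing’ than in ‘Rainier’, at 2.10 times the share (exact 95% interval 1.48 to 3.03, Fisher's exact p = 9.08e-06). In that pair 20.6% of genes were called higher in ‘Bing’. With library sizes scaled by TMM the ratio was 1.87, under the 2-fold criterion. Its share in ‘Bing’ fruit was 1.57 times that in ‘Lapins’ fruit (1.13 to 2.22) and missed the criterion as well. With TMM library sizes that ratio was 1.44. Without them, the p of the paper's test, adjusted over the genes with reads, was 0.0887 for this pair. ‘Lapins’ fruit had 1.33 times the share of ‘Rainier’ fruit (0.876 to 2.04). The order in fruit was therefore ‘Bing’, ‘Lapins’, ‘Rainier’, in which ‘Lapins’ and ‘Rainier’ did not differ beyond counting error. No copy was called between the fruits of these 2 cultivars, where 15.9% of genes were called.

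For g1120 the highest fruit was that of ‘Lapins’. Its share in ‘Bing’ fruit was 0.341 times that in ‘Lapins’ fruit (0.125 to 0.857, Fisher's exact p = 0.0166), in a pair in which 14.2% of genes were called higher in ‘Lapins’. With the p of the paper's test adjusted over the genes with reads this call was lost (adjusted p = 0.142). Between ‘Bing’ and ‘Rainier’ fruits the ratio was 0.642 (0.215 to 1.87), and between ‘Lapins’ and ‘Rainier’ fruits it was 1.88 (0.771 to 4.88), so neither pair differed beyond counting error. The few reads of g1200 gave 3.20 times the share in ‘Bing’ fruit over ‘Lapins’ fruit, with an interval of 0.358 to 151 that leaves the order open to counting error.

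In leaf, ‘Lapins’ had the highest share of both copies. For g1250 the share in ‘Bing’ leaf was 0.157 times that in ‘Lapins’ leaf (0.0168 to 0.739, Fisher's exact p = 0.00748), and ‘Lapins’ leaf had 5.01 times the share of ‘Rainier’ leaf (1.07 to 47.0, Fisher's exact p = 0.0223). For g1120 the share in ‘Bing’ leaf was at most 0.169 times that in ‘Lapins’ leaf, with the 0 reads of ‘Bing’ set to 3 (Fisher's exact p = 1.03e-05). ‘Lapins’ leaf had 4.68 times the share of ‘Rainier’ leaf (1.31 to 25.4, Fisher's exact p = 0.00748). Genes called higher in ‘Lapins’ leaf were 10.8% in the pair with ‘Bing’ and 11.3% in the pair with ‘Rainier’. With the p of the paper's test adjusted in the same way, only the call of g1120 between ‘Bing’ and ‘Lapins’ remained in leaf (adjusted p = 0.00388), and with 10 reads asked of both libraries no leaf call remained. Between ‘Bing’ and ‘Rainier’ leaves, where 23.4% of genes were called, no copy was called. Their g1250 shares, from 2 reads each, had a ratio of 0.789 (0.0572 to 10.9).

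**Figure D4:**
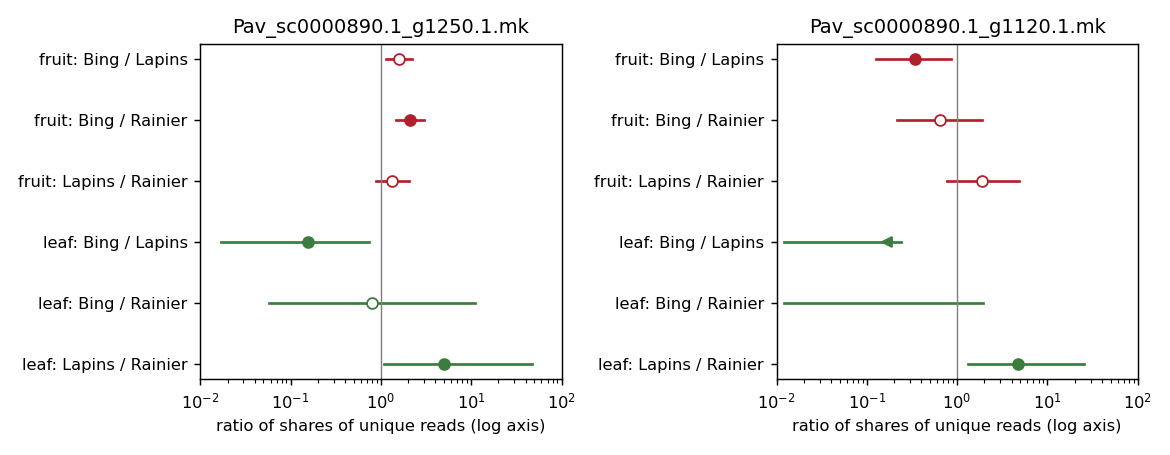
Ratio of the share of unique reads between 2 cultivars (horizontal log axis) in fruit (red) and leaf (green), for g1250 on the left and g1120 on the right. Bars are exact 95% intervals, cut at the edge of the plot, and filled points met the 3 criteria. The triangle is a ratio with 0 reads set to 3, and a bar without a point had too few reads for a ratio. In fruit ‘Bing’ lies above ‘Rainier’ for g1250 (2.10) and under ‘Lapins’ for g1120 (0.341), and in leaf ‘Lapins’ lies above ‘Bing’ and ‘Rainier’ for both.

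With both tissues in 1 edgeR model no difference of g1250 between cultivars passed. On the log2 scale it was 0.26 for ‘Lapins’ over ‘Bing’ (standard error 0.67, adjusted p = 0.985), -0.80 for ‘Rainier’ over ‘Bing’ (0.68, adjusted p = 0.832) and -1.06 for ‘Rainier’ over ‘Lapins’ (0.73, adjusted p = 0.998). The model fits 1 difference per pair for fruit and leaf alike. The ‘Bing’ to ‘Lapins’ ratio of g1250 was 1.57 in fruit and 0.157 in leaf, so that contrast averages opposite directions. The contrasts called few genes, 0.215%, 0.0537% and 0% of the tested genes. In the last contrast 27 genes had an unadjusted p under 0.05 in edgeR, and DESeq2 called 0 genes.

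The level of other fruit transcripts in ‘Lapins’ leaf was measured beside its high P450 reads. The 361 other genes called higher in fruit took 25.3%, 30.1% and 35.6% of the unique reads in the fruits, and 4.13%, 4.02% and 3.85% in the leaves. The genes were called with these same leaf libraries, which selects genes low in every leaf. The shares therefore cannot show whether other fruit transcripts were raised in ‘Lapins’ leaf.

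The annotation rows used here name 7 other P450 genes, of which 6 had unique reads and 1 passed the filter, allene oxide synthase (Pav_sc0000890.1_g1300.1.mk), the P450 at the entry to jasmonate synthesis. Its reads numbered 17, 21 and 8 in fruits and 38, 11 and 21 in leaves, and it was not called (-0.91 on the log2 scale, standard error 0.51, adjusted p = 0.158 from edgeR). Flavonoid 3'-monooxygenase (Pav_sc0000877.1_g1900.1.br), which adds the second hydroxyl of cyanidin-type pigments, had 32, 37 and 4 reads in fruits and 6, 5 and 4 in leaves. It passed only with no filter (log2 fold change 1.98, adjusted p = 0.00975), and in ‘Rainier’ its fruit share was 0.836 times its leaf share. The 86A22-like gene (Pav_sc0000886.1_g210.1.mk), of a family that hydroxylates fatty acids for cutin, had 0, 0 and 0 reads in fruits and 5, 2 and 4 in leaves. Its share in fruit was at most 0.228 times that in leaf, against 3 reads over the fruit libraries. The 82C4-like gene (Pav_sc0000890.1_g1070.1.br), of the same CYP82 family and close to the group by its identifier, had 1 read, in ‘Lapins’ leaf. The 71A25-like gene had 2 reads in each fruit and 1 in ‘Rainier’ leaf. Of the pair of ent-kaurene oxidase-like genes, named for an enzyme of gibberellin synthesis, 1 had 2 reads in ‘Bing’ fruit and the other had none.

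The genes next to the copies by identifier were also looked at. Of 28 other genes numbered g1000 to g1400, 14 had unique reads, a share of 50.0% against 37.8% of all predicted genes, and 2 were tested, allene oxide synthase and the exocyst subunit SEC3A (Pav_sc0000890.1_g1340.1.mk), which tethers secretory vesicles to the plasma membrane. SEC3A had 10, 10 and 13 reads in fruits and 13, 7 and 3 in leaves (log2 fold change 0.20, adjusted p = 0.780 from edgeR). A B3 domain gene (Pav_sc0000890.1_g1020.1.mk), of a family of transcription factors, had 12, 1 and 2 reads in fruits and 2, 1 and 2 in leaves. The uncharacterized Pav_sc0000890.1_g1330.1.mk had 1, 1 and 0 reads in fruits and 14, 1 and 5 in leaves. With no filter its log2 fold change was -3.34 (adjusted p = 0.00856 from edgeR), in a fit that called 1249 of 16519 genes lower in fruit. Of the whole scaffold, 10 of 141 genes passed the filter and were tested. Of these, 2 were called higher in fruit and none lower, beside 19.4% higher and 26.3% lower of all tested genes. These were g1250 and the transmembrane 9 superfamily member 8 gene (Pav_sc0000890.1_g360.1.mk), named after its value was seen (log2 fold change 1.52, adjusted p = 0.00717 from edgeR). The 10 genes had a median log2 fold change of 0.00053, against -0.0042 over all tested genes.

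**Figure D5:**
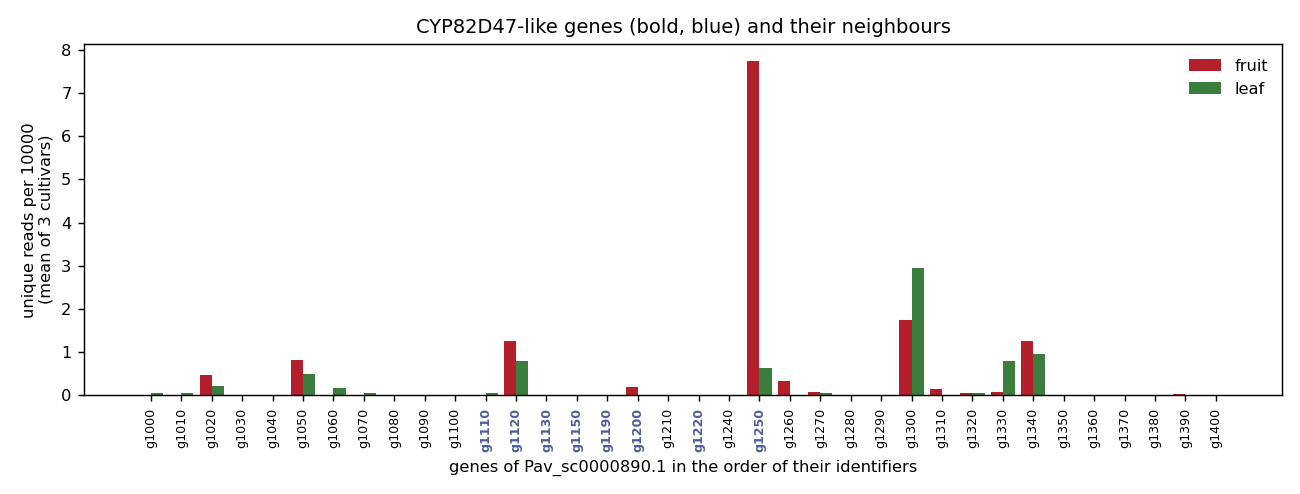
Mean unique reads per 10000 over 3 cultivars (vertical axis) in fruit (red) and leaf (green) for the copies (bold, blue) and the neighbouring genes of the scaffold, in the order of their identifiers. The tall fruit bar is g1250 at 7.75, and most copies between g1110 and g1220 have no visible bar.

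The genes whose pattern was most like that of g1250 were sought over the 6 libraries, by the Pearson correlation of log2 CPM with 1863 other tested genes. The first was Pav_sc0001181.1_g630.1.mk (r = 0.997), with 41, 26 and 26 reads in fruits and 17, 17 and 14 in leaves. Next were Pav_sc0000484.1_g140.1.mk (r = 0.996), Pav_sc0000212.1_g310.1.mk (0.991), xyloglucan endotransglucosylase hydrolase 28 (0.989), an enzyme that remodels cell walls, and Pav_sc0000716.1_g500.1.mk (0.986). That enzyme had 55, 35 and 36 reads in fruits and 8, 15 and 6 in leaves. Further described genes were Pav_sc0000893.1_g010.1.mk (r = 0.975), with a description that names only a cytoplasmic location, diacylglycerol kinase 2 (0.861), a TMK1-like receptor kinase (0.846) and signal peptide peptidase-like 2 (0.842). The 6 points fall into 3 fruits and 3 leaves, so a high r needs little more than a step between the tissues, and they share their libraries and depths.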

How the data were processed

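Total RNA of leaves and of fruits at commercial maturity was pyrosequenced, 1 library per cultivar and tissue. The authors trimmed the reads and mapped them to the predicted coding sequences with CLC Genome Workbench 11.0.1 (similarity 0.9, length fraction 0.6, unspecific match limit 10, costs of 3). They deposited, per gene, the raw unique and total read counts, and RPKM from total reads. The deposited TPM were not used. Non-specific reads are total minus unique reads. Each library's reads and intervals (Clopper-Pearson, 95%) cover counting error only, and reads are not independent molecules.

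Fruit and leaf were compared across all genes with edgeR 4.0.16 in R 4.3.3 (TMM, filterByExpr by tissue, quasi-likelihood test, Benjamini-Hochberg adjusted p under 0.05). Standard errors given with edgeR results were derived, as the absolute log2 fold change divided by the square root of the F statistic. Cultivar pairs were called by the paper's 3 criteria with the Z-test of Kal et al., and Fisher's exact test gives the p printed. The tests were tried on simulated data. Alternatives included DESeq2 1.42.0, total reads, no filter, other scalings and leaving out libraries. Leaf and fruit of a cultivar are paired by origin. Correlations of their deviations from the tissue mean were 0.145, -0.0410 and 0.0877 for ‘Bing’, ‘Lapins’ and ‘Rainier’, within the range of -0.245 to 0.233 for unlike cultivars.

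All copies were to be accounted for, beside the other P450 genes of the rows used, the neighbouring genes with at least 10 reads in a library, and the 5 genes, and the 5 described genes, most correlated with a tested copy. The copies and lists were chosen with earlier results of these data known. No identifier of the RefSeq gene table matched the files (0 of 43673), and no sequences were used.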

Additional observations from a re-analysis of the deposited data

Results flagged for a closer look

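The fruit to leaf ratio of g1250 (Pav_sc0000890.1_g1250.1.mk) differed by more than counting error between the libraries of ‘Bing’ and ‘Lapins’. It was 49.0 in ‘Bing’ and 4.90 in ‘Lapins’, a 10-fold difference between the ratios (exact conditional test, 95% interval 2 to 95.7, p = 0.000902, adjusted p = 0.00541 over the 6 cultivar pairs tested for g1250 and g1120). ‘Bing’ had both the highest fruit share and the lowest leaf share of the 3 cultivars. The test was chosen after the values were seen, covers counting error alone, and rests on 2 reads in ‘Bing’ leaf. With 1 library per cultivar and tissue it compares these 4 libraries and not the cultivars. The ratio of ‘Rainier’, 18.4, did not differ beyond counting error from that of ‘Bing’ (adjusted p = 0.31 in the same exact test) or of ‘Lapins’ (adjusted p = 0.238).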

How the results depend on the processing

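The rise of g1250 in fruit kept its direction and its adjusted p under 0.05 in all 14 alternatives. Leaving out 1 library gave log2 fold changes of 2.91 to 4.63, and the cultivar as replicate block gave 3.59 (adjusted p = 1.90e-06) and called 850 genes, 357 higher and 493 lower in fruit, against 362 higher and 490 lower without it. The number of genes called between fruit and leaf was 1957 with no filter, against 852, and 830 to 1123 without 1 library. The log2 ratio of g1250 to g1120 differed by 1.54 to 3.11 between fruit and leaf without 1 library, in a design that cannot reach p under 0.05.

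For pairs of cultivars, 10 alternatives ended a call, and every call was lost in at least 1 of them. The 66 alternatives tried also cover pairs that were not called. Adjusted p ended that of g1120 between ‘Bing’ and ‘Lapins’ fruit (ratio 0.341) and, in leaf, those of g1250 between ‘Bing’ and ‘Lapins’ (0.157) and between ‘Lapins’ and ‘Rainier’ (5.01) and of g1120 between ‘Lapins’ and ‘Rainier’ (4.68). Asking for 10 reads in both libraries ended the same 4 and that of g1120 between ‘Bing’ and ‘Lapins’ leaf (0.169), by its construction. TMM library sizes ended that of g1250 between ‘Bing’ and ‘Rainier’ fruit (1.87). Genes called in any pair were 722 in fruit and 247 in leaf with adjusted p, 501 and 327 with 10 reads in both libraries, and 1890 in leaf with 5 reads in 1 library, against 1670 in fruit and 1071 in leaf. At 0 to 15 reads per library, g1120, g1200, g1190 and g1110 allow no firmer statement.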
